A study of Homo sapiens with 30 samples.

Results

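The 3 PRO-seq libraries of G401 cells carrying the EGFP control construct were used to describe what the cells transcribe in the absence of SNF5. G401 is a cell line from a malignant rhabdoid tumor of the kidney. The members were all genes of the PRO-seq table read through its EGFP columns, from 3 of 9 PRO-seq samples. The table lists 20582 transcripts under 20367 gene symbols. The transcript with the most gene body reads was kept for each symbol, which left 19862 genes with a gene body of at least 500 bp. The series as a whole asked how SNF5 and OmoMYC, a mutant MYC that blocks MYC function, act on chromatin and transcription. All cells described here lack SNF5, carry a doxycycline-inducible EGFP construct delivered by lentivirus, and were kept as a selected population rather than a clone. Expression was induced for 24 h with doxycycline at 1 μg/ml. MYC peaks came from 2 ChIP-seq samples of the same EGFP cells. The labels number the PRO-seq samples as replicates, and the legends of the study call them independent experiments.

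PRO-seq is a nuclear run-on assay that maps RNA polymerases engaged in transcription. At many genes RNA polymerase II stops shortly after the start site and must be released before it enters the gene body. The pausing index compares the density of reads in a promoter-proximal window with that over the gene body. SNF5, encoded by SMARCB1, is a subunit of the SWI/SNF chromatin remodeler, and its loss defines malignant rhabdoid tumors. MYC is a transcription factor that pairs with MAX and binds the sequence CACGTG, known as the E-box, at promoters of genes for ribosomes, translation and metabolism.

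Levels are given as density, the reads per kb of window scaled to 1000000 gene body reads in the sample. A gene was called transcribed when its gene body density was at least 0.5 in each of the 3 samples. A gene was called silent when the density was under 0.05 in each sample and its gene body was long enough for 3 reads, over the 3 samples together, to lie under that level. All other genes were intermediate.

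The samples held 34919279, 30177634 and 46957634 gene body reads and 518900, 2923648 and 2538465 promoter-proximal reads in replicates 1, 2 and 3. Replicate 1 had the smallest share of promoter-proximal reads, 1.46% against 8.83% and 5.13%, and its median pausing index was 9.64 against 46.1 and 28.3. For this reason the pausing index of a gene was compared with the median gene of the same sample. Gene body densities of replicates 1 and 2 correlated with r = 0.969 across 10869 genes, and those of replicate 3 with r = 0.908 and 0.896. Of 10495 genes with a density of 0.5 or more in some sample, replicate 3 lay at least 4-fold above both other samples at 97 and at least 4-fold below both at 170. The same counts were 1 and 29 for replicate 1, and 9 and 5 for replicate 2. At the start, replicate 1 was the one apart. Log2 promoter-proximal densities of replicate 1 correlated with r = 0.739 and 0.748, against 0.886 between replicates 2 and 3. For the log2 pausing index these values were 0.771, 0.806 and 0.928. The 10th and 90th percentiles of the index were 3.03 and 38.7, 9.46 and 240.3, and 6.14 and 145.0. Setting the median gene as zero does not even out this spread.

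A further property of the table bears on every statement about silence. A total of 1934 genes (9.74%) were listed at 0 in all 3 promoter-proximal and all 3 gene body counts. They included 39.7% of the genes of chromosome X and 20.8% of those of chromosome 6, against 7.59% of genes on the other autosomes. In 73 places at least 5 neighboring genes were listed at 0 together, and these runs held 747 genes. The run with the most genes, 39, spanned chrX:151806637-153285342 on hg19. The next 2 runs, with 34 and 32 genes, lay at chr6:31733371-32412826 and chr6:32546547-33285719, in the region of the major histocompatibility complex. Genes that every cell uses were among those listed at 0, including EIF4H, RPS18, RPL10, TPI1, PGK1 and BRD2. The reason was not tested, and a gene listed at 0 is not read below as silent in the cells. Of the 6590 genes that met the rule for silence, 1921 were listed at 0 and 4669 had at least 1 read. Whether genes with only a few reads share this property of the table was not tested.

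SMARCB1, which lies at chr22:24129150-24176705, had 4, 1 and 6 gene body reads in replicates 1 to 3 over 46556 bp, and 0 promoter-proximal reads in each. Its density was 0.00246, 0.000712 and 0.00274. Given the property of the table described above, such counts do not by themselves show loss of the gene. That the cells lack SNF5 is taken from the study. Most genes of the complex were transcribed. Of 26 SWI/SNF genes in the table, 20 were transcribed (76.9%, against 47.2% of all genes). ARID1A, the DNA-binding subunit of the BAF form of the complex, had densities of 4.11, 3.83 and 5.32. SMARCA4, which encodes the ATPase BRG1, had 2.54, 1.8 and 2.89. These values were similar in the 3 samples. BRD9, a subunit of the form of the complex that lacks SNF5, had 4.19, 3.54 and 4.6. SMARCA2, the alternative ATPase BRM, was silent at 0.000969, 0.0028 and 0.00853. The neuronal subunit genes ACTL6B and DPF3 were silent too, and BCL7B was listed at 0.

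Across the genome, 9379 of 19862 genes were transcribed (47.2%), 3877 were intermediate (19.5%), 6590 met the rule for silence (33.2%) and 16 were too short to call. The silent genes with a read carried a median of 13 gene body reads over the 3 samples together, spread over a median gene body of 31.6 kb. Transcribed genes had median densities of 2.16, 2.04 and 2.1. Their 10th and 90th percentiles were 0.893 and 6.14 in replicate 1, 0.863 and 6.5 in replicate 2 and 0.872 and 6.27 in replicate 3. The 100 genes with the most reads held 11.22%, 12.03% and 11.55% of the gene body reads.

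The genes with the highest density included long non-coding RNAs, ribosomal protein genes and translation factors. Among the top 25 genes with a gene body of at least 1 kb and 50 reads in each sample, 7 were non-coding, 4 encoded ribosomal proteins and 2 were translation factors. MALAT1, a nuclear non-coding RNA, had densities of 120.1, 182.5 and 103.3. NEAT1, the RNA scaffold of paraspeckles, had 101.8, 97.9 and 87.6. GDF15, a secreted stress-response factor of the TGF-β family, had 87.3, 86.4 and 99.8. Another annotated start lies within 500 bp of the GDF15 start on the same strand. The last 2 varied little between samples, and MALAT1 was highest in replicate 2. HIST1H3D, a replication-dependent histone H3 gene, ranked at the top by its mean but with 49.4, 798.7 and 171.6. It was the densest of the 25 in replicates 2 and 3 but not in replicate 1, and its density differed more between samples than that of any other gene of the 25. The annotated gene ENSG00000282988 overlaps its listed gene body of 1453 bp on the same strand, so the reads of both cannot be told apart. Where transcription starts within the listed span was not tested.

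Hosts of small nucleolar RNAs, which guide the modification of ribosomal RNA, were near the top. SNHG1 had densities of 72.6, 119.9 and 62.2. ZNFX1-AS1, also called ZFAS1, had 77.7, 94.6 and 72.8, and GAS5 had 54.8, 78.5 and 50.6. All 3 were highest in replicate 2 and lowest in replicate 3. Translation and ribosomal protein genes of the 25 varied to different degrees. EEF1A1, the elongation factor that brings transfer RNA to the ribosome, had 68.3, 63.2 and 58.2, and EIF4A2, an RNA helicase of translation initiation, had 57.4, 66.4 and 54.9. RPS12, a ribosomal protein gene, had 59.3, 63.1 and 56.3. These 3 were steady, while RPL10A (49.7, 68.8 and 76.1) was lowest in replicate 1 and RPS6 (43.5, 60.5 and 44.3) highest in replicate 2. Genes of other kinds followed. FTH1, the ferritin heavy chain that stores iron, had 50.6, 89.6 and 56.8. DUSP6, a phosphatase that inactivates ERK, had 48.9, 65.5 and 55.5. BMP4, a signal of the TGF-β family in early development, had 44.1, 63.5 and 39.9. The remaining members of the 25 had mean densities from 47.6 to 77.8. Among them CITED2, a transcriptional coregulator, had 85.4, 115.0 and 32.9, and SAT1, an enzyme of polyamine breakdown, had 75.5, 95.4 and 23.3, so that both were lowest in replicate 3. LINC00324 (20.8, 100.4 and 57.1) and UCA1 (34.9, 92.2 and 43.9), both non-coding, were lowest in replicate 1.

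**Figure D1:**
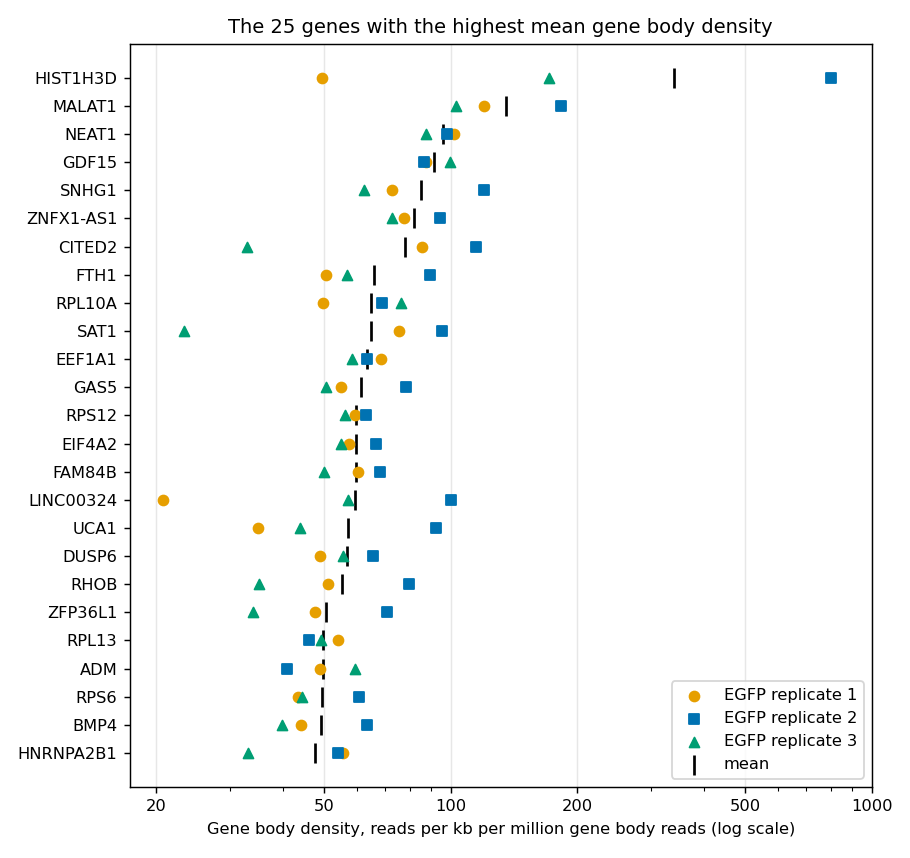
Gene body density, reads per kb scaled to 1000000 gene body reads, on a log axis, for the 25 genes with the highest mean. Each point is 1 of the 3 EGFP replicates and the vertical mark is their mean, and HIST1H3D shows the widest spread, from 49.4 to 798.7.

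Widening the view from 25 to 100 genes raised the number of ribosomal protein genes to 23 and of MYC-bound genes, defined below, to 29. Their gene bodies were short, with a median of 3.26 kb against 29.8 kb over all 11861 genes that passed the same filter. The motif TATAAA, a core form of the TATA box, was searched on the gene's strand in the 30 bases from 40 to 11 bp upstream of the listed start. It was present at 12 of the top 100 genes (12%), at 3.1% of the top 1000, at 0.67% of transcribed genes and at 1.77% of all 19862 genes. The 4 windows below show the motif at genes of different roles among the 12. They are read from hg19 on the gene's strand, 5′ to 3′, with TATAAA in capitals.
GDF15, chr19:18496928-18496957, plus strand: agtccggggacTATAAAggccggtccggca
ATF4, chr22:39916529-39916558, plus strand: acgaagtcTATAAAgggccggcgggcggcc
CYR61, chr1:86046404-86046433, plus strand: cgccggcccgTATAAAaggcgggctccggg
ACTB, chr7:5570243-5570272, minus strand: cggcggcgcccTATAAAacccagcggcgcg

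These windows lie upstream of the transcript, and a match says only that the letters are present. ATF4, the transcription factor of the integrated stress response, had a mean density of 42.5. CYR61, a matrix protein induced by growth factors, had 44.6, and ACTB, cytoplasmic actin, had 36.9. They were named after their values were seen.

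Lineage genes were tallied in 12 lists that together held 268 genes. Of these, 44 were transcribed, 66 were intermediate and 157 met the rule for silence, including most of the 34 that were listed at 0. Over all genes these shares were 47.2%, 19.5% and 33.2%, and the shares of the lists below stand against them. The transcribed genes did not fall into a single lineage, and no list of a differentiated tissue was transcribed as a whole. In replicate 3 the density of 7 lineage genes lay at least 4-fold from both other samples, and each is marked below where it is named.

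Of 37 genes of nephron progenitors and kidney development, 12 were transcribed (32.4%), 6 were intermediate, 18 met the rule for silence (2 of them listed at 0) and 1 was too short to call. The transcribed genes included FOXC2, a forkhead factor of early mesenchyme, with densities of 7.23, 13.3 and 2.25. SIX4, a homeobox factor of muscle and sensory organs, had 4.71, 5.0 and 4.33, and FOXD1, a factor of the renal stroma, had 1.87, 2.85 and 4.11. SIX4 was steady, while FOXC2 was lowest and FOXD1 highest in replicate 3. PAX2, which marks the nephric lineage, was intermediate at 0.302, 0.291 and 2.0, with replicate 3 apart. The core factors of nephron progenitors were silent. SIX2 had 0.0, 0.0103 and 0.0, WT1 had 0.00184, 0.00992 and 0.00137, and SALL1 had 0.002, 0.0 and 0.0. EYA1 and OSR1 were silent as well. PAX8, GATA3 and RET, which act in the collecting system and renal vesicles, were also silent, and TCF21 and EMX2 were listed at 0.

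Few genes of the mature nephron were transcribed. Of 22, 1 was transcribed (4.5%), 5 were intermediate and 16 met the rule for silence, of which 2 were listed at 0. The exception was SCNN1A, a subunit of the epithelial sodium channel, with densities of 2.81, 3.92 and 4.34 but only 1, 1 and 3 reads in the promoter-proximal window. UMOD, the uromodulin of the thick ascending limb, had 0.0, 0.00178 and 0.00114, and NPHS1, the nephrin of podocytes, had 0.0235, 0.0246 and 0.0308.

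Mesenchymal genes were split. Of 28, 10 were transcribed (35.7%), 7 intermediate and 11 silent by the rule, with 1 of these listed at 0. VIM, the intermediate filament of mesenchymal cells, had densities of 28, 50.7 and 27.9. SNAI1, a repressor of epithelial genes, had 8.58, 7.26 and 12.8. COL1A1, the α1 chain of type I collagen, had 4.56, 4.7 and 2.41. All 3 were far above the threshold in every sample. COL1A2, its partner chain, had 2.37, 3.17 and 0.425 and was thus intermediate, with replicate 3 apart. Other classical mesenchymal genes were silent. FN1, fibronectin, had 0.00345, 0.00178 and 0.000856, and CDH2, N-cadherin, had 0.000381, 0.00118 and 0.00161. ZEB2 and COL6A3 were silent too. TWIST1 and SNAI2 had a density of 0 in every sample, while TWIST2 and ZEB1, which encode related repressors, were transcribed at mean densities of 1.33 and 1.2.

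Epithelial genes gave a similar mixture. Of 26, 4 were transcribed (15.4%), 9 intermediate and 13 silent by the rule, with 2 of these listed at 0. KRT18 and KRT8, which encode the paired keratins of simple epithelia, had densities of 42.2, 40.7 and 24.1 and of 7.09, 11 and 4.65. DSP, desmoplakin, had 8.47, 8.36 and 6.79. These were high in all 3 samples. CDH1, E-cadherin, was at 0.0239, 0.0358 and 0.213, EPCAM at 0.0356, 0.0432 and 0.0732, and the splicing regulator ESRP1 at 0.0118, 0.0309 and 0.0196. VIM, KRT8 and KRT18 were therefore all transcribed while FN1, CDH2, CDH1 and EPCAM were each under 0.25 in every sample.

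In the neural and neural crest lists the transcribed genes were few and strong. OTX2, a homeobox factor of the forebrain and midbrain, had densities of 21.5, 41.3 and 33.4. NES, the intermediate filament nestin, had 7.2, 4.93 and 8.23, and TUBB3, neuronal β-tubulin, had 5.8, 4.58 and 5.77. These were the only 3 of 26 neural genes transcribed (11.5%), and 18 were silent, of which 6 were listed at 0. PAX6, MAP2, DCX and STMN2 were silent with reads. Of 19 neural crest genes 4 were transcribed (21.1%). MSX1, a homeobox factor of the dorsal neural tube and limb, had 32.3, 53.8 and 47.9. TFAP2A had 10.1, 14.7 and 1.85, with replicate 3 apart, and MITF, a factor of pigment cells, had 7.17, 7.81 and 9.16. SOX9, FOXD3, PAX3 and TFAP2B, which also act in the neural crest, were silent.

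The other tissues gave few transcribed genes. Skeletal muscle had 1 of 16 (TNNT1, a troponin, at a mean density of 2.34), and MYOG was silent while MYOD1 and MYF5 were listed at 0. Smooth muscle and heart had 2 of 20, TAGLN and SMTN. HAND2 was intermediate, with 2.32, 3.82 and 0.0781 and replicate 3 apart. Endothelium had 2 of 15, ESAM and FLT4, and SOX18, a factor of vessels, was intermediate with 3.59, 5.63 and 0.0473 and replicate 3 apart. Blood had 1 of 19, GATA2, at 6.49, 9.04 and 8.57. Liver and gut had 2 of 21, HHEX and APOA1. Among 19 pluripotency and germ line genes, SALL4 had 11.8, 12.6 and 10.8 and LIN28A, which blocks processing of let-7, had 4.72, 3.67 and 5.72. POU5F1, PRDM14 and NANOG were silent, so these genes were transcribed without the core pluripotency factors. The other genes that differed in replicate 3 were ETS1 (0.191, 0.18 and 1.8) and WNT11 (0.282, 0.16 and 1.43).

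Oncofetal genes, active in the embryo and in embryonal tumors, stood apart from the lineage lists by their share. Of 14, 11 were transcribed (78.6%), against 47.2% of all genes, with a median density of 2.37 against 0.536. HMGA2 and HMGA1, which encode architectural chromatin proteins, had densities of 17.8, 19.1 and 16.3 and of 13.5, 14.9 and 14.9. IGF2BP1 and IGF2BP3, RNA-binding proteins, had 4.07, 3.37 and 3.54 and 4.1, 3.56 and 2.53. LIN28B had 1.5, 1.67 and 2.72 and GPC3, a cell surface glypican, had 1.87, 1.94 and 2.75. IGF2 was silent at 0.00735, 0.0323 and 0.012. The list was chosen with results of these data known, so its share is not independent evidence.

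HOX genes were widely transcribed. They encode the transcription factors that set position along the body axis. Of 34 in the table, 24 were transcribed (70.6%, against 47.2% of all genes), 8 intermediate and 2 silent, at a median density of 1.55. HOXA9 had densities of 26.1, 36.9 and 17. HOXC9 had 6.47, 11.8 and 9.4, and HOXB2 had 7.1, 15.9 and 6.66. Genes of the HOXA, HOXB and HOXC clusters supplied these high values, while HOXD10 and HOXD11 were silent. HOXB13 differed between samples, with 3.02, 4.26 and 18.1.

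**Figure D2:**
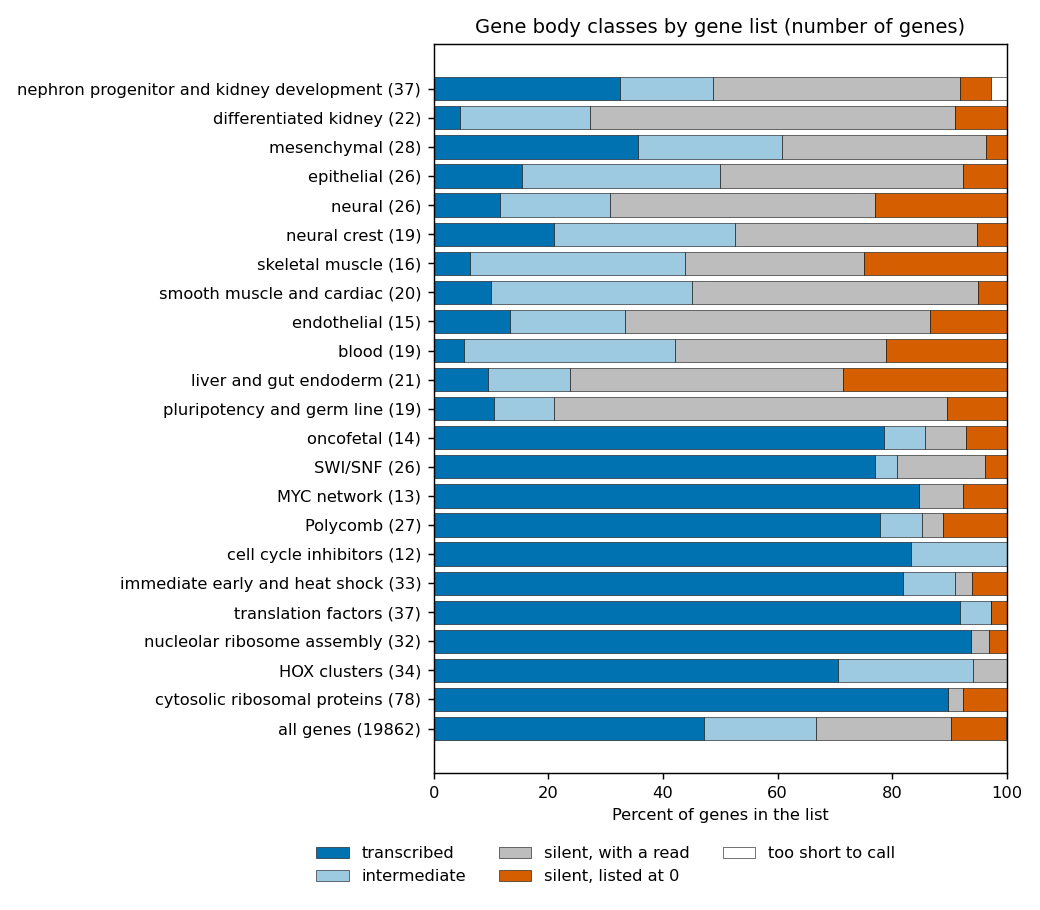
Share of each gene list that was transcribed, intermediate, silent with at least 1 read, silent and listed at 0 in all counts, or too short to call, in percent of the genes in the table (number in parentheses). The 12 lineage lists at the top have at most 35.7% of their genes transcribed, and the oncofetal, chromatin, translation and HOX lists have 70.6% or more.

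Polycomb genes, whose complexes oppose SWI/SNF, were mostly transcribed, with 21 of 27 (77.8%, against 47.2% of all genes). EZH2, the histone H3 lysine methyltransferase of PRC2, had densities of 2.15, 2.0 and 1.87, SUZ12 had 2.21, 1.84 and 2.01, and EED had 2.85, 2.66 and 3.67. CBX6, a PRC1 subunit, was highest with 18, 15.4 and 16.2. RING1, PHF1 and CBX2 were listed at 0. In the MYC network, 11 of 13 genes were transcribed (84.6%). MYC itself had 23.2, 27.8 and 19.5, while MAX, its obligate partner, had 1.41, 1.25 and 1.25. MYCN was silent at 0.0, 0.0122 and 0.0. The antagonists MNT, MXD4, MXD3 and MXD1 were transcribed at mean densities from 1.94 to 3.59. Of the 3 MYC paralogs, MYC was thus the only one with a density above 2 in any sample.

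Of 12 cell cycle inhibitor genes 10 were transcribed (83.3%, against 47.2% of all genes) and none was silent. CDKN1A, the p53 target p21, had densities of 23.2, 29.0 and 34.0. MDM2, another p53 target and a p53 ligase, had 23.6, 22.7 and 17. CDKN1B had 13.8, 19.6 and 11.6. CDKN2A, which encodes p16 and ARF, was intermediate at 0.285, 0.337 and 0.343, and CDKN2B was at 0.169, 0.147 and 0.0787. These 2 neighboring genes were the only inhibitors under 0.5 in every sample. Immediate early and heat shock genes were also active, with 27 of 33 transcribed (81.8%, against the same 47.2%). JUND had 41.1, 82.5 and 54.1, DUSP1 had 39.6, 49.8 and 27.6, and the chaperone HSPA8 had 38.6, 33.6 and 34.7. FOS, by contrast, had 3.1, 3.02 and 6.6, and EGR3 was silent. HSPA1A and HSPA1B, near-identical copies in the chromosome 6 run of 34 genes described above, were listed at 0.

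Genes for making ribosomes and proteins were high as groups. Of 78 ribosomal protein genes in the table, including paralogs such as RPL3L and RPL22L1, 70 were transcribed (89.7%, against 47.2% of all genes). Their median density was 20.5 against 0.536 for all genes. Of the 8 that met the rule for silence, 6 were listed at 0, among them RPL10, RPL7A, RPS18, RPS25 and RPS9. RPL3L, the muscle paralog of RPL3, was silent with reads. Translation factors gave 34 of 37 transcribed at a median of 5.24, and nucleolar assembly factors 30 of 32 at a median of 4.14. NOP56, a core protein of box C/D small nucleolar particles, had 28.9, 28.7 and 29.8. NCL, nucleolin, had 24.0, 32.2 and 27.6. NPM1, nucleophosmin, had 18.4, 15.6 and 18.6.

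Pausing was examined at the 10869 genes with a mean of at least 10 reads in both windows. Promoter-proximal reads were set against gene body reads in edgeR's quasi-likelihood test, with replicate as a block and the median gene of each sample as zero. The pausing index was above the median gene at 3054 genes (28.1%) and below it at 3062 (28.2%), with Benjamini-Hochberg adjusted p under 0.05. Because the median gene is the zero, near-equal counts on both sides follow from the scale. With a 2-fold margin built into the test the counts were 1630 and 1529. Without replicate 1 they were 3730 and 3697, without replicate 2 they were 2209 and 2124, and without replicate 3 they were 1587 and 1515. The median index of the genes above was 26.7, 177.4 and 108.1 in replicates 1 to 3, and of the genes below 3.85, 12.5 and 7.97. Genes above had lower gene body densities (medians 1.02, 0.985 and 0.982) than genes below (3.19, 2.97 and 3.19). They also had higher promoter-proximal densities, with medians of 25.8, 175.0 and 106.5 against 11.5, 36.5 and 23.0. The groups were called from the ratio of these same counts, so nothing is read from this on which window sets it.

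The index rose with gene length. Genes above the median gene had a median gene body of 41.8 kb, and genes below of 13.7 kb. Across genes, log2 gene body length correlated with log2 pausing index with r = 0.305, 0.329 and 0.31 in the 3 samples (n = 10869, the index itself holding the length). Of 482 tested genes with a gene body under 2 kb, 58.9% were below the median gene and 7.26% above. Of 3279 genes with 50 kb or more, 17% were below and 39.5% above. The median content of G and C in the 200 bases around the start was 66.7% for genes above and 70.6% for genes below. TATAAA was present upstream of 0.39% of genes above and 0.95% of genes below.

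The 12 strongest indices, by the lowest of the 3 samples, belonged to genes with many reads at the start and few beyond it. SMURF2, a ubiquitin ligase of the TGF-β pathway, had indices of 698.9, 11788.8 and 11521.0. Its promoter-proximal window held 230, 3337 and 3276 reads, and its gene body density was 0.189, 0.187 and 0.121. On the log2 scale it lay 7.64 above the median gene (SE 0.69, edgeR adjusted p = 3.2e-05). SH3BGR had 663.7, 11352.5 and 4630.5. Both were lowest in replicate 1, as the median gene was. Indices of SYCE2, MSH4, NUP210L and ALS2CR11 lay between 454.9 and 1527.5. SYCE2, MSH4 and NUP210L are known for their use in germ cells. A further 4 of the 12 were non-coding RNA genes. LOC100616530 had indices of 7460.9, 44677.9 and 34031.0 over a gene body of 540308 bp with a density of 0.013, 0.023 and 0.019, so it was silent by the rule above while 169, 1552 and 1519 reads lay at its start. All 12 genes had an index above 450 in every sample, while FAM190A and CAGE1, just outside the 12, had lowest values of 391.8 and 386.6. Where a listed start is shared with another annotated gene, the reads of both cannot be told apart.

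Of 60 tested lineage genes, 14 were above the median gene (23.3%, against 28.1% of all tested genes) and 23 were below (38.3%, against 28.2%). Of 39 transcribed lineage genes 53.8% were below and 7.69% above, and of 20 intermediate ones 10% were below and 50% above. Class is set by gene body density, by which the index is divided, so nothing is read from this on lineage genes. Among the 37 kidney development genes 16 were tested, of which 4 were above (25%) and 9 below (56.2%). The median gene body of these 16 was 7.52 kb, and 4 of the 6 genes under 5 kb were below. The 9 below were all transcribed and included SIX4, FOXC2 and HOXC11. The 4 above were intermediate or silent over the gene body. WNT9B, a ligand that starts nephron formation, was silent over its body (0.0374, 0.0203 and 0.0383) but had 7, 13 and 25 promoter-proximal reads and indices of 112.9, 426.3 and 280.4. CITED1, a marker of nephron progenitors, had indices of 23.6, 653.5 and 74.9 with densities of 0.0818, 0.0364 and 0.342. OSR2 (51.0, 170.8 and 140.4) and PAX2 (10.4, 112.5 and 86.9) were the other 2. Of the remaining 10 lineage genes above, COL1A1, SNAI1 and TWIST2 were transcribed. COL5A2, ERBB3, PMEL, NGFR, CNN1, LMOD1 and CSF1R were intermediate. In total 41 of the 4669 silent genes with a read had at least 10 promoter-proximal reads in every sample (0.878%), against 88.64% of transcribed genes.

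The 12 weakest indices were those of transcribed genes whose density at the start ranged from below that of the body to 3.22 times as high. FTH1 had 0.764, 0.699 and 0.889, and lay 4.92 below the median gene on the log2 scale (log2 difference -4.92, SE 0.50, edgeR adjusted p = 5.3e-05). JUND had 1.02, 0.63 and 0.767. MALAT1 had 0.57, 1.8 and 1.39. These 3 ranged from 0.57 to 1.8 over all samples. IRF2BP2, a corepressor, had 1.52, 1.42 and 0.935, and PIM1, a kinase, had 1.18, 1.59 and 2.2. MSX1 had 1.99, 2.66 and 1.67. TNFRSF12A, PRDX1, HIST1H3D, LOC283624 and KCNJ2-AS1 were also among the 12, with no index above 3.22 in any sample. The overlap and the untested start of HIST1H3D, given above, also limit its index. Just outside, PCBP1, ZNF580 and H1FX had highest values of 3.35 to 3.38. VIM (0.276, 0.896 and 0.679) and RPS27A (0.0657, 0.426 and 0.314) were lower still but held under 50 promoter-proximal reads in some sample.

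**Figure D3:**
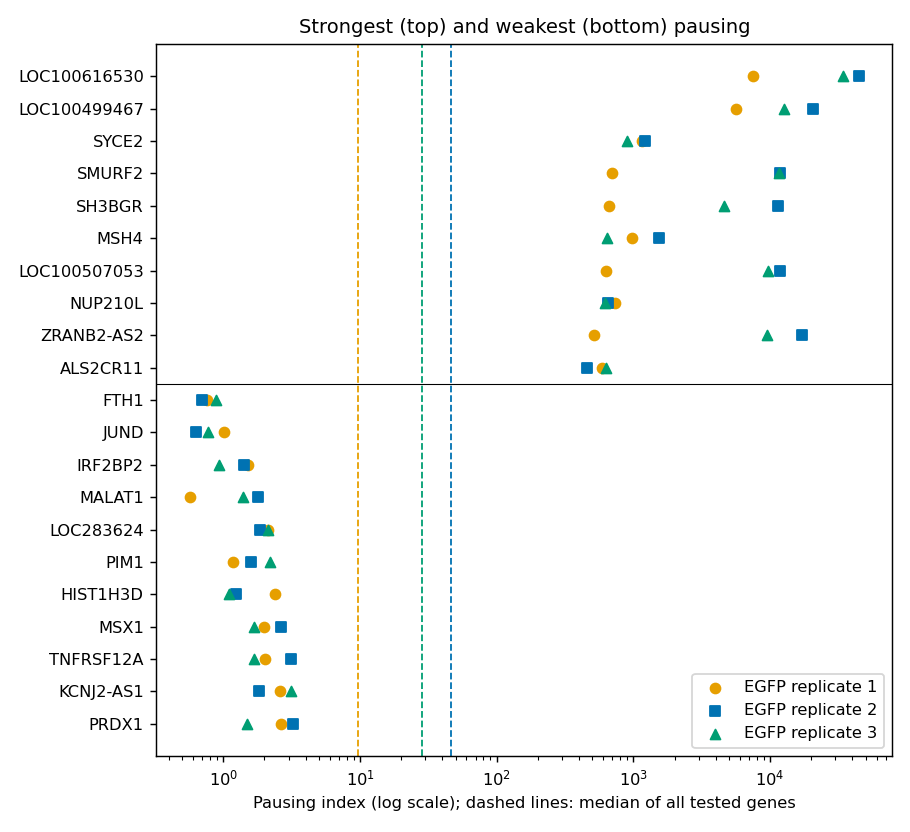
Pausing index on a log axis for 10 of the 12 genes with the strongest and 11 of the 12 with the weakest pausing, with a point for each of the 3 EGFP replicates and dashed lines at the median of the 10869 tested genes in each (9.64, 46.1 and 28.3). The strongest genes shown lie above 450 and the weakest below 3.3 in all 3 replicates.

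Some transcribed genes had almost no reads at the listed start. Of the transcribed genes, 402 were not tested because they had too few reads at the start, and 54 had 0 promoter-proximal reads in all 3 samples. TFAP2A had 2, 2 and 0 such reads beside 7698, 9733 and 1898 gene body reads. GATA2 had 1, 4 and 3, EIF4E, the cap-binding protein, had 1, 6 and 0, and ATF3 had 0 in each. Their gene bodies were nonetheless well above the threshold, and the use of another start was not tested.

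By group, genes that respond to signals and genes that set body position were more often below the median gene than all tested genes. The index has gene body density as its divisor, and it fell with density across the bins described further below. Of 28 tested immediate early and heat shock genes, 15 were below the median gene (53.6%, against 28.2% of all tested genes) and 5 were above (17.9%, against 28.1%). Those below included EGR1 (1.88, 3.22 and 4.51), BTG2 (3.44, 7.58 and 2.77) and HSPA8 (5.45, 8.56 and 5.79). Those above were JUN (37.2, 161.3 and 91.1), JUNB, FOSB, KLF4 and HSPH1. Members of a family thus lay on both sides, with JUND among the 12 weakest. Of the 28, 18 had gene bodies under 5 kb. Of 22 tested HOX genes, 15 were below (68.2%) and 0 above. HOXB2 had 1.09, 3.06 and 2.2 and HOXA9 had 2.08, 7.15 and 3.7. The median gene body of the tested HOX genes was 2.17 kb and 19 of the 22 were under 5 kb. Among all tested genes of 2 to 5 kb, 50.2% were below, and among those under 2 kb 58.9% were. Of 70 tested ribosomal protein genes, 32 were below (45.7%) and 7 above (10%), and 49 were under 5 kb. Nucleolar assembly genes gave 15 of 30 below (50%) and 6 above, with only 5 under 5 kb. Genes not MYC-bound, as defined below, had median indices of 4.41, 18.3 and 11.8 in the highest of 5 density bins, from 3.74 up. Median densities of the early response (7.19), ribosomal protein (20.5) and nucleolar (4.14) lists lay in that bin. Their median indices were 4.74, 23.1 and 14.6, 4.61, 29.8 and 16.8, and 5.38, 29.8 and 14.5, none lower. The HOX list, at 1.55, had 4.34, 8.75 and 9.07. The part of density was not tested.

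Among SWI/SNF genes 8 of 20 were below (40%, against 28.2% of all tested genes) and 2 above (10%, against 28.1%). Among Polycomb genes 8 of 21 were below (38.1%) and 2 above (9.52%). EZH2 (23.0, 132.6 and 77.8), PBRM1, ACTL6A and PHC3 were the ones above. MYC lay below the median gene with 5.23, 10.2 and 6.09 (log2 difference -1.77, SE 0.38, edgeR adjusted p = 0.0028). RB1 (31.7, 187.9 and 160.9) and RBL1 (78.1, 413.1 and 277.4), which encode the retinoblastoma protein and its relative, lay above, while MDM2 (2.39, 3.72 and 3.27) lay below.

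MYC binding was taken from the peaks of the 2 EGFP ChIP-seq samples, 940 in replicate 1 and 5396 in replicate 2. Of the replicate 2 peaks, 897 overlapped a replicate 1 peak by at least 1 bp. A gene was called MYC-bound when its start lay within 1 kb of the replicate 2 summit of such a region, which held for 867 of 19862 genes (4.37%). The number depended on the definition, with 374 genes when overlap of 50% in both directions was asked for and 4669 genes with all peaks of replicate 2. The E-box was present no more than 100 bp from the summit in 477 of these 897 regions (53.2%), while it was found within 100 bp of the start at 5.99% of all genes and at 6.44% of transcribed genes without MYC binding. At transcribed MYC-bound genes the share around the start was 21.21%. CACGTG reads the same on both strands, so 1 search covers both.

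The 7 windows below hold the CACGTG nearest to the summit of bound regions at genes with the highest enrichment or density. At 8 such genes (IARS, MTHFD2, SNHG1, ZNFX1-AS1, RPL10A, EEF1A1, RPS12 and RPS6), including 6 of the 10 densest bound genes, no CACGTG was found within 100 bp of the summit. The windows are 30 bases of the plus strand of hg19, with each CACGTG in capitals. In the annotation the motif lies in a non-coding part of an exon for GTF3A, WDR43, G6PC3 and GAS5, in a coding exon for RPL13 and in no exon for GDI2 and BMP4. It is 150 bp downstream of the listed start of GTF3A, 3 bp downstream at WDR43, 413 bp downstream at GAS5 and 371 bp downstream at RPL13. It is 48 bp upstream at G6PC3, 285 bp upstream at GDI2 and 251 bp upstream at BMP4.
GTF3A, chr13:27998819-27998848: CACGTGtctcggCACGTGgcagcgcgcctg
GDI2, chr10:5855785-5855814: gcgtgcggcggcCACGTGggcgaggagcgc
G6PC3, chr17:42148038-42148067: tgcaacagtggcCACGTGgggccctgagga
WDR43, chr2:29117524-29117553: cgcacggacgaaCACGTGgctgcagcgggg
GAS5, chr1:173836700-173836729: caggcacttaagCACGTGgactaccaccga
RPL13, chr16:89627424-89627453: gcggcgcgtggcCACGTGgttcaaccagcc
BMP4, chr14:54423793-54423822: tcacctggggacCACGTGcggaggtactag

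The summit with the highest enrichment in replicate 2 was at GTF3A, the transcription factor of 5S ribosomal RNA genes, with 20.3-fold in replicate 2 and 10.6-fold in replicate 1. Its gene body density was 3.58, 3.55 and 3.41 and its pausing index 3.28, 6.25 and 6.06. GDI2, a regulator of RAB proteins, had 18.8-fold and 8.76-fold. WDR43, a nucleolar assembly factor, had 17.8-fold and 11.7-fold, with a density of 7.04, 5.7 and 6.82. The other 9 of the 12 genes with the highest enrichment were IARS, G6PC3, GET4, PLD6, MFSD3, ZZZ3, MTHFD2, DUS3L and SYNCRIP. Their enrichment was 16.5-fold to 18.4-fold in replicate 2 and their mean density 2.35 to 7.5. All 12 were transcribed, but none was among the 25 densest genes. Among the 10 densest bound genes, enrichment in replicate 2 ran from 3.19-fold at GAS5 to 12.9-fold at PCBP1, around the median of 8.29-fold over the 897 regions. Over the 867 bound genes, enrichment and mean gene body density had Spearman correlations of 0.105 in replicate 1 and 0.111 in replicate 2, across genes that share libraries.

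MYC-bound genes were nearly all transcribed. Of 867, 778 were transcribed (89.73%, against 47.2% of all genes), 41 were intermediate and 48 met the rule for silence. Of those 48, 37 were listed at 0, including EIF4H, RPS18, BRD2 and DKC1, and 11 met the rule with at least 1 read. Among the 830 bound genes with a read, 93.7% were transcribed. The 11 included PIGW, with 46, 137 and 123 promoter-proximal reads and 0, 1 and 0 gene body reads, and BOP1, a nucleolar factor with 23, 9 and 20 gene body reads. BOP1, HSF1, RAD17, VPRBP, SRSF10 and MED22 had 0 promoter-proximal reads in each sample. MED22, with 1, 0 and 4 gene body reads, lies between SURF6 and RPL7A, which were both listed at 0. Whether such genes are silent in the cells was not tested. Genes listed at 0 had a replicate 2 peak within 1 kb of the start in 8.12% of cases, against 1.5% of silent genes with a read.

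The share of bound genes rose with transcription. Among the 9379 transcribed genes, 8.3% were MYC-bound. The transcribed genes were placed in 10 equal bins by mean gene body density. In the lowest bin 24 of 938 genes were bound (2.56%, 95% exact binomial interval 1.65 to 3.78%). In the highest bin 189 of 938 were bound (20.15%, interval 17.63 to 22.86%). The shares of the bins between rose at every step, from 3.62% to 12.79%, although neighboring bins often had overlapping intervals. These intervals cover counting error only. With all peaks of replicate 2 the shares were 26.9% in the lowest and 57.4% in the highest bin.

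**Figure D4:**
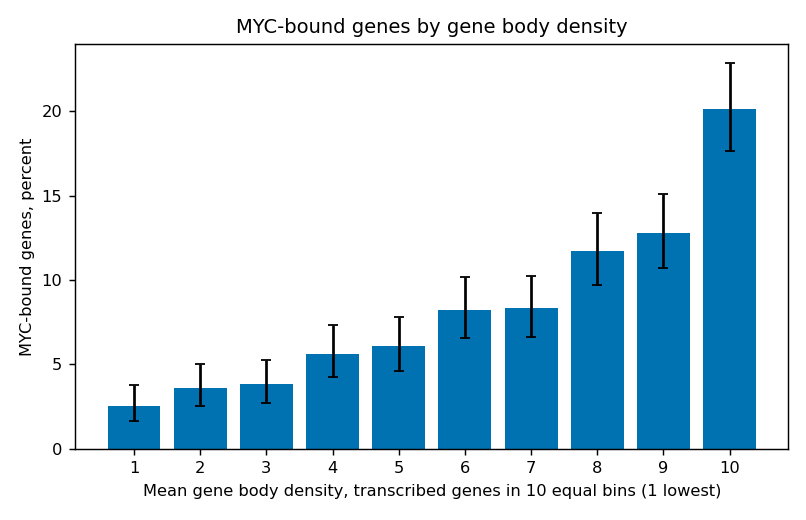
Percent of transcribed genes that were MYC-bound, in 10 equal bins of mean gene body density, with 95% exact binomial intervals as bars. The share goes from 2.56% in the lowest to 20.15% in the highest bin.

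By function, binding was concentrated in genes for ribosomes. Of 32 nucleolar assembly genes 20 were bound (62.5%) and of 78 ribosomal protein genes 41 were (52.56%), shares above the 20.15% of the densest bin. RRS1, NOP56, NCL, NPM1, GNL3 and NOP16 were bound, as were RPL10A, RPS12, RPL13 and RPS6. Translation factors gave 11 of 37 (29.73%), including EEF1A1, EIF4G1 and PABPC1. In the lineage lists 0 of 268 genes was bound, against 4.37% of all genes, and 44 of these were transcribed. The counts were also 0 of 34 HOX, 0 of 27 Polycomb and 0 of 12 cell cycle inhibitor genes, and at this size nothing is read from them. BMP4, at 4.60-fold and 4.65-fold, was a developmental gene outside the lists that was bound. The MYC gene itself was not, while MXD1 and MXD3, which encode MYC antagonists, were. Since the lists were chosen with results of these data known, these shares are descriptive.

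Bound and other genes were compared by their medians among the 10869 tested genes, 813 bound and 10056 other. With 3 samples a sign-flip test cannot go under 0.25, so the differences are given with their SD and no p. Bound genes had median gene body densities of 3.29, 3.05 and 3.24 against 1.75, 1.65 and 1.68 (mean log2 difference 0.92 ± 0.03 SD, n = 3). Their promoter-proximal densities were 25.8, 131.9 and 78.8 against 16.0, 70.3 and 44.3 (0.81 ± 0.11). Both windows thus held more polymerase at bound genes in every sample. Their pausing indices were 7.58, 43.6 and 24.3 against 9.87, 46.4 and 28.6 (-0.23 ± 0.15), lower in all 3 samples. Of the bound genes 33.7% were below the median gene and 23.1% above, against 27.7% and 28.5% of the other genes.

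Genes were then compared within 5 equal bins of mean gene body density, which narrow but do not remove the difference in transcription. The mean log2 density of bound minus other genes was 0.19 in the lowest bin, 0.22 in the highest and 0.02 to 0.06 between. Within each bin the bound genes had the higher median index in all 3 samples. In the lowest bin the medians were 40.5, 154.6 and 96.7 at 48 bound genes against 26.2, 109.1 and 68.7 at 2126 others, a mean log2 difference of 0.54 ± 0.08. In the highest bin they were 4.87, 25.7 and 14.5 at 349 bound genes against 4.41, 18.3 and 11.8 at 1825 others, or 0.31 ± 0.17. The differences of the bins between were 0.62 ± 0.12, 0.09 ± 0.09 and 0.19 ± 0.11. Of the 813 bound genes 349 lay in the highest bin, where indices were lowest in both groups. These values depended on how binding was defined. In the lowest bin the difference was -0.32 under the reciprocal 50% overlap of peaks and 0.26 to 0.35 under 5 other settings for the distance, the peaks, their q-value or the start. It was 0.02 to 0.26 in the middle bin and 0.04 to 0.33 in the next over all settings. Median gene bodies of bound genes were longer than those of other genes in each bin, from 57.3 against 47.9 kb in the lowest to 8.85 against 8.34 kb in the highest, and the part of length in the difference was not tested.

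**Figure D5:**
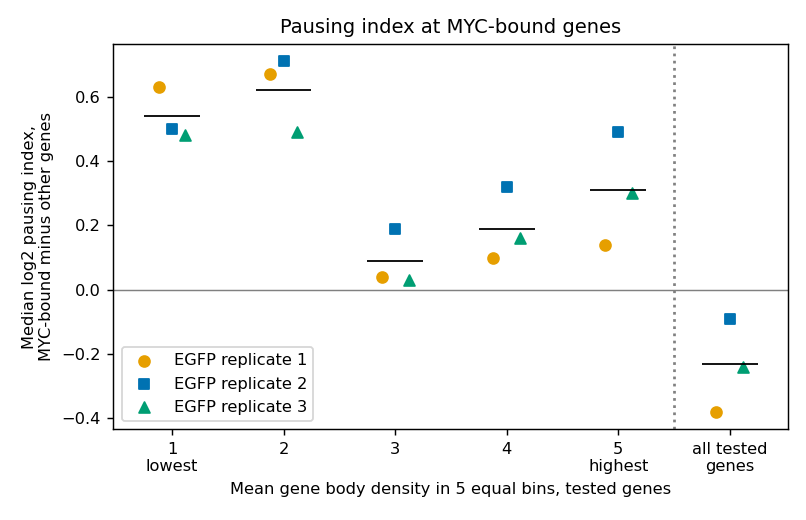
Median log2 pausing index of MYC-bound minus other genes in 5 equal bins of mean gene body density, and for all tested genes at the right. Points are the 3 EGFP replicates and lines their mean. All points lie above 0 within the bins and below 0 for all tested genes.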

How the data were processed

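The authors trimmed PRO-seq reads with cutadapt, kept those longer than 15 bp, aligned them to hg19 with Bowtie2, removed rRNA reads and reads with mapping quality under 10, and counted them with NRSA per RefSeq transcript. The deposited values used are raw counts in the promoter-proximal window (the 50 bp with the most reads within 500 bp of the start) and over the gene body from 1 kb past the start to the gene end. The deposited gene body density, in reads per bp, was used only to check that length, which fitted at 99.91% of 11132 entries in replicate 3. The 18 other per-sample columns of the table were not used. The authors used MACS2 (q-value 0.01) to call MYC peaks separately per sample. Their deposited fold enrichment at the summit and −log10 q-value were used.

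Densities were scaled to the gene body total of the table. Pausing indices added 0.5 to both counts. Pausing was tested with edgeR 4.0.16 (R 4.3.3), on genes whose counts averaged 10 or more in each window, with offsets for length, depth and the sample's median index, and replicate as a block because both counts come from 1 library. In data simulated for this test, 90% of 200 genes changed 4-fold among 10869 were recovered and 6.25% of calls were false. DESeq2 1.42.0 was an alternative. Starts were compared with GENCODE on GRCh37: 16682 of 19862 symbols matched, 97.9% of them within 1 kb, and 4.1% of genes had another gene's start within 500 bp on the same strand. Symbols absent from GENCODE could not be flagged for a nearby start, which can only lower this share.

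Members and lists were chosen with earlier results of these data known. Named genes were SMARCB1, members of the lists, the 25 densest genes, 12 strongest and 12 weakest pausing indices (at least 50 reads in both windows of each sample), and MYC-bound genes, the 12 with the highest enrichment and the 10 densest. A few genes that met these rules are not reported here. Other genes were named after their values were seen, among them those listed at 0, ATF4, CYR61, ACTB, PIGW and BOP1.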

Additional observations from a re-analysis of the deposited data

How the results depend on the processing

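Of 78 repeats of the main results under another setting, 68 stayed within 1.5 times a count or within 1 SD of a difference, and none turned direction. The pausing test kept the replicate as a block, which pairs the 2 counts of each library by construction. With no replicate block it called 3000 genes above and 2751 below the median gene, against 3054 and 3062. The 2-fold margin gave 1630 and 1529, and leaving out each replicate gave 1587 to 3730 above and 1515 to 3697 below, lowest without replicate 3. DESeq2 called 3197 and 3164. After the data were seen, genes flagged for another start within 500 bp were left out, which gave 2924 and 2928, and genes listed at 0 were left out, which gave 4669 silent and 830 MYC-bound genes. Genes whose symbol is absent from GENCODE could not be flagged and stayed in the first of these repeats. MYC-bound genes numbered 374 with reciprocal overlap of 50% and 4669 with all peaks of replicate 2. The gene body difference of bound minus other genes (log2 0.92) was 1.51 and the promoter-proximal one (0.81) 1.64 with no filter on counts. The gene body difference was 0.74 with all peaks of replicate 2 and 0.95 at a q-value of 0.0001. The pausing difference in the lowest of 5 density bins was -0.32 with reciprocal overlap. The cause of these changes was not tested, beyond the fewer or more genes each setting keeps. All 24 named pausing genes kept their side and their call where they were tested. Depth limits silence: 3 reads on 1 kb stand for densities of 0.0859, 0.0994 and 0.0639 in replicates 1 to 3. In the lists, 15 of 22 HOX genes were below the median gene. A minimum gene body of 5 kb left out 19 of these 22, and 2 of the rest were below.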
